A study of Homo sapiens with 5 samples.

Results

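Iron enters most cells as transferrin-bound iron through the transferrin receptor, is carried out of endosomes by a divalent metal transporter, is stored in a shell built of ferritin heavy and light chains, and leaves the cell through ferroportin. The balance is set largely after transcription. When iron is scarce, the iron regulatory proteins bind short hairpins called iron-responsive elements (IREs), which holds back translation of ferritin and ferroportin messages and protects the transferrin receptor message from decay, so that a change in an RNA level can come from synthesis or from stability and does not give the protein level. The genes described here were named by role as 9 members of iron uptake, storage and export, and they were found by gene name among the 64837 entries counted: TFRC, TFR2 and SLC11A2 for uptake, LCN2 for siderophore binding, FTH1 and FTL for storage, SLC40A1 and CP for export, and IREB2 as an iron regulatory protein. A filter on low counts left 7 of the 9, which were tested together with the other genes, 20360 in all.

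The cells were NCI-H209, an established human small cell lung cancer (SCLC) line, in 2 groups. The control group had 3 libraries of untreated cells, and the co-cultured group had 2 libraries of cells kept for 24 h below a Transwell insert that held human brain microvascular endothelial cells (HBMECs). No genetic change is given for either group, and both grew with fetal bovine serum, which brings its own transferrin and iron. The culture medium of the HBMECs also held Nu-serum, and the sources used here do not say whether control wells had an empty insert, so the endothelial cells, their medium and the insert cannot be told apart. RNA was depleted of ribosomal RNA and sequenced as directional libraries, and the values are reads per gene on the strand of the library.

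Totals on genes ran from 15457071 to 19157348 counts per library. The share of reads left unmapped was 8.13% to 8.48% in control and higher after co-culture, at 16.8% and 15.9% (replicates 1 and 2), and its part in the results was not tested. In RNA from whole cultures, fewer cells of a kind and less RNA per cell cannot be told apart. Control replicate 1 stood apart from the other control libraries on the second principal component, which held 18.8% of the variance, and values are therefore given by library. The labels do not say whether replicates were separate cultures, so p-values measure the spread between these libraries, which may be technical. Of 15 neuroendocrine markers, 14 were measured well enough to be tested, with summed levels of 2528 to 3499 CPM (counts after scaling each library to the same size), and CHGA had 1 count at most. Of these 14, 5 were higher and 3 lower after co-culture. The 15 endothelial markers summed to 10.1 to 21.1 CPM in control and to 13.6 and 13.7 CPM in co-cultured cells. Of the endothelial markers, 4 stayed at or under 3 counts throughout, while CDH5 had 4 to 11 counts and PECAM1 3 to 18. VWF had the most in each library, with 159, 75 and 87 counts in control against 87 and 90 after co-culture. ERG had 70, 64 and 55 in control against 52 and 41. Among the 9 endothelial markers tested, with a median log2 fold change of -0.09, ESAM alone passed the threshold, rising from 3, 4 and 6 counts to 21 and 14. The receptors FLT1, KDR and TEK had log2 fold changes of -3.97, -1.30 and -1.85 that did not pass, with 24 to 37 counts in control replicates 1 and 2 but 0 to 2 in control replicate 3. The part of these markers in the results below was not tested.

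IREs were looked for in the protein-coding transcripts of GENCODE release 29, because they are the shared feature by which several of these messages are regulated. The pattern was a C that bulges from the stem, 5 bases, the loop CAGTGN and 5 bases that pair with the former (A with T, G with C, or G with T), followed by at least 3 further pairs in direct succession below the bulge. It was found in 27 of 19702 protein-coding genes (0.137%), whose transcripts differ in length, and in 4 of the 9 iron genes. The sites are shown in the sense of the transcript, with T for U, 29 bases each on GRCh38, and capitals mark the bulged C and the loop.

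The ferritin and ferroportin sites lie in exons, in the 5′ UTR. They are at chr11:61967574-61967602 on the minus strand, chr19:48965335-48965363 on the plus strand and chr2:189580661-189580689 on the minus strand.
FTH1: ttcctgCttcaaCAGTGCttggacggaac
FTL: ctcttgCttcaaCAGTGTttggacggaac
SLC40A1: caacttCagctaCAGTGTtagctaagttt

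Those of TFRC lie in the 3′ UTR, all on the minus strand and listed in the order of the transcript, at chr3:196050979-196051007, chr3:196050575-196050603, chr3:196050510-196050538 and chr3:196050463-196050491.
TFRC site A: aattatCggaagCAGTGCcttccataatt
TFRC site B: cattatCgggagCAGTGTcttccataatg
TFRC site C: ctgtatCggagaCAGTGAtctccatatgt
TFRC site D: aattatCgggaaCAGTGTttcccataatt

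The FTH1 and FTL sites were identical at 26 of 29 positions. Both were identical to the SLC40A1 site at 13 and 14 positions, in this order. Among the 4 TFRC sites found, 18 to 25 positions were identical between any pair. Their letters follow the order of the matches here and are not established names. Any TFRC element that departs from the pattern would have been missed. Among the other iron genes, ALAS2 and TF were 2 that held a match. For SLC11A2 and for EPAS1, whose messages are known to carry IREs, no match was found, which says only that these letters and pairs are not in the transcripts searched.

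Across the 9 iron genes, 1 changed in the co-cultured NCI-H209 cells at an adjusted p under 0.05 in the quasi-likelihood test of edgeR, with Benjamini-Hochberg adjustment across all 20360 genes. FTH1, the ferritin heavy chain, rose 1.53-fold, whereas FTL, the light chain, had a fold of 0.957. The transferrin receptor TFRC had a fold of 1.5 that missed the threshold (adjusted p = 0.0505), with 1 control library far above the other controls. The importer SLC11A2 (adjusted p = 0.0509) and the exporter SLC40A1 (adjusted p = 0.0573) also missed it, with folds of 1.16 and 0.720. The count of 1 higher among 7 tested stands beside 18.4% of all genes tested that were higher, and the count of 0 lower beside 15.0% that were lower, together 33.4%. At an unadjusted p under 0.05, 1 member was lower by edgeR and 1 by DESeq2. The study's criterion was a fold change above 1 in absolute value and a p under 0.05. It was read here as a log2 fold change beyond 1 in either direction and an unadjusted p under 0.05. Read so, the criterion was met by 0 members by edgeR and 0 by DESeq2, against 10.5% of all genes by edgeR. An unadjusted p under 0.05 alone was found for 4 members by edgeR. The share of all genes at that looser threshold was not counted, but it holds at least the 33.4% that were called. The groups did not overlap in CPM for 6 of the 7 genes, against 59.4% of all genes tested. The median log2 fold change was 0.22 over the 7 genes and -0.03 over all genes tested.

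**Figure D1:**
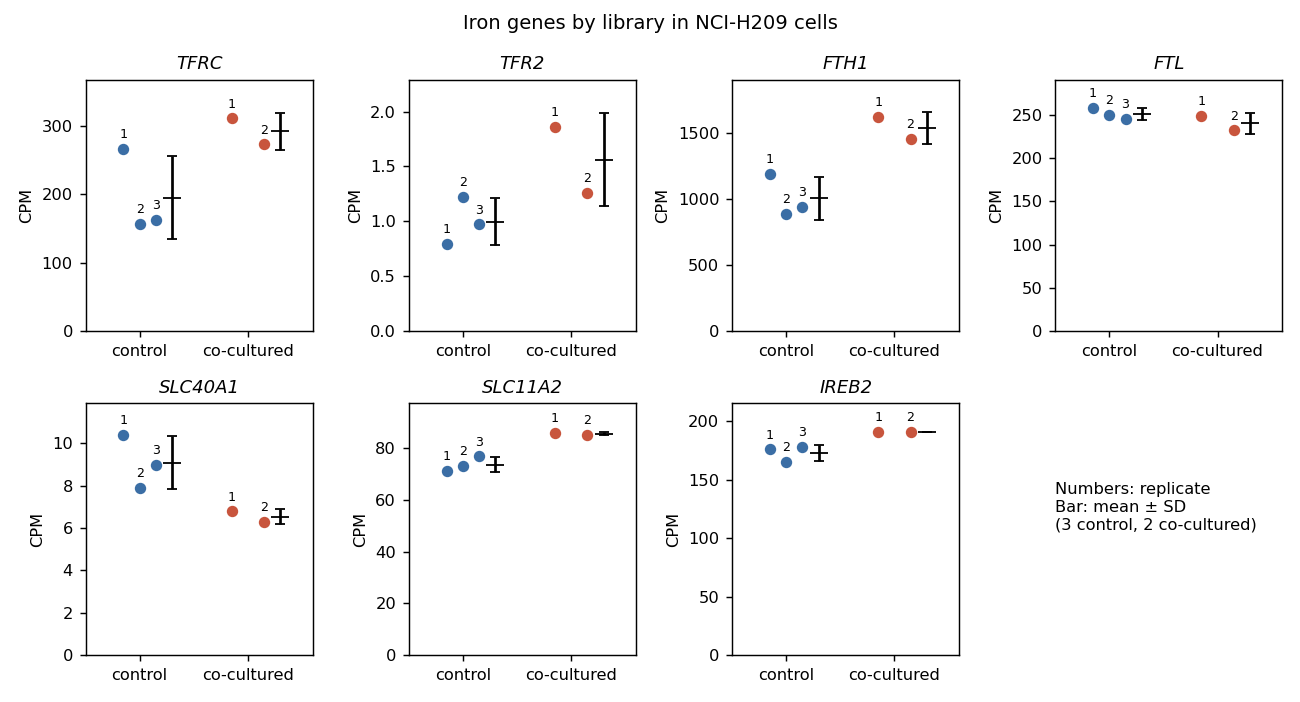
CPM (vertical axes from 0) of the 7 iron genes tested in each control (blue) and co-cultured (red) library, with replicate numbers, and the mean ± SD as a bar. FTH1 was at 1451 CPM or above only in the co-cultured libraries, TFRC in control replicate 1 (266 CPM) lay near the co-cultured libraries, and FTL overlapped between the groups.

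Ferritin stores iron in a shell of mixed heavy and light chains. The heavy chain carries the ferroxidase activity that oxidizes iron on entry, and the light chain favours mineral formation inside the shell. FTH1 (ENSG00000167996.15) lies on chromosome 11 from 61959718 to 61967660 on the minus strand of GRCh38. Its counts were 22394, 16002 and 18344 in control against 29647 and 21966 after co-culture, which is 1191, 885 and 939 CPM against 1620 and 1451 CPM. Both co-cultured libraries lay above all control libraries, and control replicate 1 was the highest of the controls. The control mean of 1005 ± 163 CPM (SD, n = 3) compared with 1536 ± 120 CPM (SD, n = 2) after co-culture. The log2 fold change was 0.61 with a standard error of 0.13, a 95% interval of 0.32 to 0.90 and an adjusted p of 0.00637 by edgeR. Without co-cultured replicate 1 it was 0.54 with an adjusted p of 0.0777.

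FTL (ENSG00000087086.14) lies on chromosome 19 from 48965301 to 48966878 on the plus strand. Its CPM was 258, 250 and 245 in control against 249 and 232 after co-culture, so the groups overlapped. The log2 fold change was -0.06 (95% interval -0.24 to 0.11, adjusted p = 0.561 by edgeR), an interval that excludes the value of 0.61 found for FTH1. The ratio of FTH1 to FTL was formed within each library from TPM, that is, counts per exon length scaled to a common sum. It was 1.99, 1.53 and 1.66 in control against 2.82 and 2.71 after co-culture. Every co-cultured value exceeded every control value, a mean difference of 0.69 on the log2 scale. In TPM, unlike CPM, FTL did not overlap, at 967 to 1093 in control against 943 and 897 after co-culture. FTH1 lay above all control libraries in TPM too, so the ratio had to separate and its separation adds no support. The exact two-sided permutation test gave p = 0.2, the smallest that 3 libraries against 2 can give, and this ratio was 1 of 5 compared.

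Both ferritin chains have many processed pseudogenes with near-identical sequence, and reads that map to several places were not counted, so the levels of both genes are uncertain. The annotation named 25 pseudogenes of FTH1 and 16 of FTL, of which 8 and 11 had 0 counts in every library. Together the FTH1 pseudogenes held 146 to 195 counts per library, 0.537% to 0.987% of the FTH1 count, and the FTL pseudogenes held 36 to 59 counts, 0.858% to 1.23% of the FTL count. The 3 with the most counts were FTH1P3, FTH1P16 and FTH1P8, with log2 fold changes of -0.38, 0.01 and 0.91 and adjusted p of 0.216, 0.977 and 0.0922 by edgeR. Of the 6 FTH1 and 2 FTL pseudogenes that were tested, 0 had an adjusted p under 0.05 by edgeR or by DESeq2, and 2 had an unadjusted p under 0.05 by edgeR, both higher, with FTH1P8 among them. With the pseudogene reads added, the log2 fold change was 0.61 for FTH1 and -0.07 for FTL.

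FTH1 shares 1267 exonic bases with BEST1, a chloride channel gene on the opposite strand. Counts of BEST1 were 400, 289 and 317 in control against 802 and 860 after co-culture, and it rose by 1.49 on the log2 scale (adjusted p = 0.000187 by edgeR). These counts were 1.73% to 1.81% of the FTH1 counts in control and 2.71% and 3.92% after co-culture. For TFRC, which has no exonic neighbour on the other strand, 0.0383% of reads fell on the wrong strand, and for FTL 0.211%. Without regard to strand most FTH1 reads became ambiguous, which left 2091 to 4290 counts per library and a log2 fold change of 0.72.

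TFRC, on chromosome 3 from 196027183 to 196082189 (ENSG00000072274.12, minus strand), encodes the receptor that brings iron-loaded transferrin into most dividing cells. Its counts were 5005, 2843 and 3180 in control against 5698 and 4135 after co-culture. In CPM these were 266, 157 and 163 against 311 and 273. Control replicate 1 was far above the other controls and just below co-cultured replicate 2, and the groups did not overlap. The control mean of 195 ± 61.3 CPM (SD, n = 3) compared with 292 ± 27.1 CPM (SD, n = 2) after co-culture. The log2 fold change was 0.58 with a 95% interval of 0.13 to 1.03 (standard error 0.20) and an adjusted p of 0.0505 by edgeR. Without control replicate 1 the value was 0.87 (adjusted p = 4.21e-08), and with each other library left out it did not pass, with adjusted p from 0.120 to 0.255. With all 5 libraries it passed by edgeR under 4 of the 7 other settings. Adjusted p was 0.0469 (median-ratio normalization), 2.12e-08 (at least 1 count in any library), 0.0442 (unstranded counts) and 0.0139 (replicate block). It did not pass by DESeq2 (adjusted p = 0.212). By edgeR it also missed with upper-quartile normalization (adjusted p = 0.0603) and with at least 10 counts in every library (0.0501).

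The ratio of FTH1 to TFRC, in TPM, was 17.4, 21.9 and 22.4 in control against 20.2 and 20.6 after co-culture. The co-cultured values lay inside the control range, with a difference of 0.00 on the log2 scale (exact two-sided permutation p = 1). The low end of that range was control replicate 1 alone, and both co-cultured values lay below the other controls. The 3 protein-coding genes whose levels followed FTH1 most closely over the 5 libraries were PFN2, DEGS1 and ASF1B, at Euclidean distances of 0.0531, 0.0577 and 0.0681 between centred log2 CPM values. All 3 were highest among the controls in replicate 1, as FTH1 was, which follows from how they were chosen.

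TFR2, the second transferrin receptor, is known mainly from liver and erythroid precursors, where it senses iron-loaded transferrin. It lies on chromosome 7 from 100620416 to 100642779 and its counts were 15, 22 and 19 in control against 34 and 19 after co-culture. The groups overlapped in counts but not in CPM, where control lay at 0.798 to 1.22 and co-culture at 1.86 and 1.26. Its log2 fold change was 0.66 with a 95% interval of -0.10 to 1.42 (adjusted p = 0.166 by edgeR), so at this depth neither a difference nor its absence could be shown. Of all reads on its exons, 38.1% came from the opposite strand.

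SLC11A2 encodes the divalent metal transporter DMT1, which carries iron out of endosomes and, in the gut, into the cell. It lies on chromosome 12 from 50979401 to 51028566. Its CPM was 71.2, 73.1 and 76.9 in control against 86.1 and 85.4 after co-culture. The libraries were close within each group and the groups did not overlap, but the difference was small, at a log2 fold change of 0.22 (95% interval 0.05 to 0.39, adjusted p = 0.0509 by edgeR). Without control replicate 1 the adjusted p was 0.0137 with a log2 fold change of 0.20. With all 5 libraries it passed under 2 of the 7 other settings. Among those it missed were DESeq2 (adjusted p = 0.0923) and, by edgeR, upper-quartile normalization (adjusted p = 0.187) and the replicate block (0.176).

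SLC40A1 encodes ferroportin, the only known exporter of iron from cells, and lies on chromosome 2 from 189560579 to 189583758. Its counts were 195, 143 and 175 in control against 124 and 95 after co-culture, that is 10.4, 7.91 and 8.96 CPM against 6.78 and 6.28 CPM. All control libraries lay above both co-cultured libraries. The log2 fold change was -0.47 with a 95% interval of -0.86 to -0.09 and an adjusted p of 0.0573 by edgeR. Under upper-quartile normalization it was -0.55 with an adjusted p of 0.0289. It passed under no other alternative, with an adjusted p of 0.140 by DESeq2 and of 0.143 by edgeR with the replicate block.

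TFRC and SLC40A1, which encode the main entry and the exit, lay on opposite sides of 0. The ratio of TFRC to SLC40A1 in TPM was 14.1, 10.9 and 9.98 in control against 25.2 and 23.9 after co-culture. Both co-cultured values were above all control values, control replicate 1 included, a difference of 1.09 on the log2 scale (exact two-sided permutation p = 0.2, the smallest this design allows). In TPM, TFRC was higher and SLC40A1 lower in both co-cultured libraries than in every control library. The ratio therefore had to separate, and it adds no support beyond the genes themselves. Neither gene passed the threshold on its own. The other genes that overlap a member share no exonic base with it: AC024937.1 and RNU7-18P at TFRC, RNU6-87P at SLC11A2 and AC027228.1 at IREB2.

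**Figure D2:**
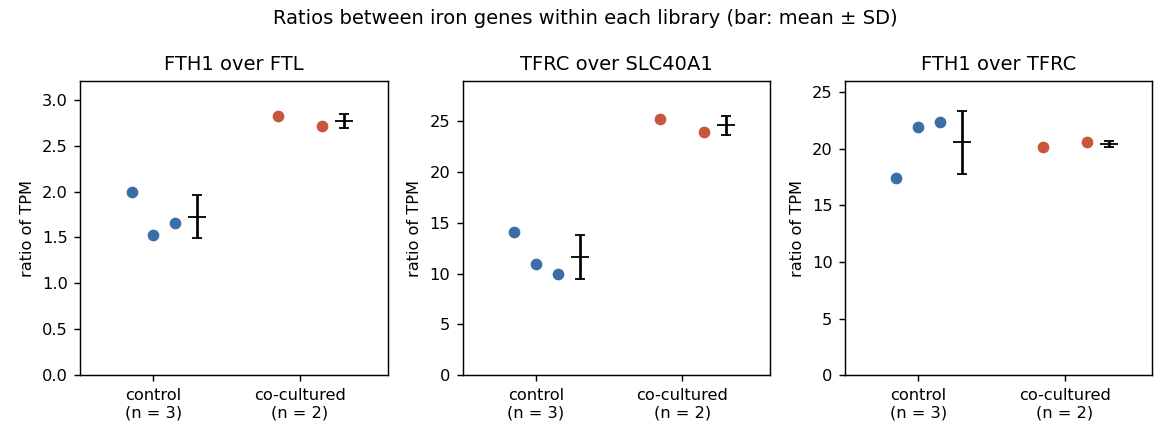
Ratios of TPM between iron genes within each library (vertical axes from 0), for 3 control (blue) and 2 co-cultured (red) libraries, with the mean ± SD as a bar. FTH1 over FTL and TFRC over SLC40A1 did not overlap between the groups, whereas FTH1 over TFRC had both co-cultured values inside the control range of 17.4 to 22.4, whose low end is control replicate 1.

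LCN2 and CP were at the floor. LCN2, lipocalin 2, binds bacterial siderophores and in doing so withholds or carries iron. It lies on chromosome 9 from 128149071 to 128153455 and had 1 count in co-cultured replicate 1 and 0 in every other library. Its name was absent from the deposited gene names, and it was found in the annotation. CP encodes ceruloplasmin, a copper ferroxidase that oxidizes the iron leaving through ferroportin, and lies on chromosome 3 from 149162410 to 149222055. It had 1 count each in control replicate 1 and co-cultured replicate 2 and 0 in the others. A count of 3, taken as the floor, corresponds to 0.157 to 0.194 CPM on the unscaled library totals. No fold is given for either gene. On the opposite strand CP collected 190 to 343 reads per library, where it shares 1418 exonic bases with HPS3. For HPS3 the log2 fold change was -0.05 (adjusted p = 0.688 by edgeR). Without regard to strand CP would have had 34 to 70 counts.

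IREB2 encodes iron regulatory protein 2, which is removed by FBXL5 when iron and oxygen are at hand. It lies on chromosome 15 from 78437431 to 78501456. Its CPM was 176, 165 and 178 in control against 191 and 191 after co-culture, with no overlap between groups but a log2 fold change of 0.14 (95% interval -0.03 to 0.31, adjusted p = 0.177 by edgeR). The log2 fold change of ACO1, which encodes iron regulatory protein 1, was 0.21 (adjusted p = 0.125), and that of FBXL5 was -0.03 (adjusted p = 0.828). Of these 3 genes, 0 passed the threshold in edgeR's test or by DESeq2, and 0 had an unadjusted p under 0.05 by edgeR. The ratio of IREB2 to ACO1 in TPM was 2.31 to 2.73 in control and 2.25 and 2.44 after co-culture.

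Per exon length, the levels of the iron genes in control spanned more than 3 orders of magnitude. FTH1 was highest, at 1744 ± 162 TPM (SD, n = 3), rank 28 of 19969 protein-coding genes, and FTL followed with 1014 ± 68.9 TPM at rank 52. TFRC had 86.7 ± 21.1 TPM, IREB2 56.7 ± 2.85 TPM, SLC11A2 25.8 ± 2.43 TPM and SLC40A1 7.39 ± 0.437 TPM (SD, n = 3 each). TFR2 had 0.705 ± 0.204 TPM (SD, n = 3). The control ranges of neighbours in this order did not meet from FTH1 down to TFR2 and CP, while CP and LCN2 could not be told apart. In the co-cultured libraries the order of the 7 tested genes was the same, with FTH1 at 2544 ± 162 TPM, FTL at 920 ± 32.0 TPM and TFRC at 125 ± 9.74 TPM (SD, n = 2 each). The length used was the union of all annotated exons, which lowers the value of genes with long alternative exons.

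**Figure D3:**
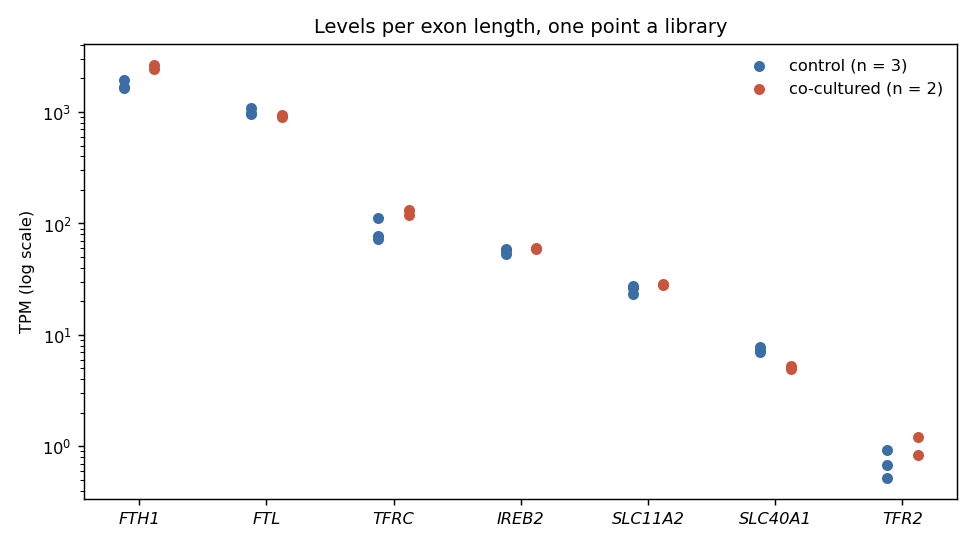
Levels of the 7 tested iron genes in TPM (log axis), 1 point per library, for control (blue) and co-cultured (red) cells. The ferritin genes lie highest, FTH1 above FTL in each library, and SLC40A1 and TFR2 lie lowest.

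The rest of the pathway was described from lists of 78 further iron genes, of which 64 were tested. Of these 64, 27 were higher and 7 were lower at an adjusted p under 0.05 by edgeR, and 30 did not pass, with a median log2 fold change of 0.26 against -0.03 over all genes. These shares stand beside 18.4% higher and 15.0% lower among all genes tested. With either co-cultured library left out, 13 were higher and 4 were lower.

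In cellular uptake, 5 of 12 tested genes outside the members were higher and 0 were lower by edgeR, with 0 lower at an unadjusted p under 0.05. By DESeq2, 4 were higher and 0 lower. STEAP1, of the family of endosomal metalloreductases, rose from 7, 2 and 4 counts to 12 and 12, by 1.62 on the log2 scale (adjusted p = 0.0459 by edgeR), and its adjusted p ran from 0.00678 to 0.237 over the alternatives. The other 4 were STEAP2, the zinc and iron transporters SLC39A8 and SLC39A14, and SNX3, which recycles the transferrin receptor, with log2 fold changes of 0.54, 0.67, 0.48 and 0.48. TF itself was not tested, with 0 to 11 counts per library.

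In storage, all 3 tested genes outside the members rose. NCOA4, the receptor that delivers ferritin to lysosomes for breakdown, rose by 0.43 on the log2 scale (adjusted p = 0.00306 by edgeR), with 107 ± 6.20 CPM in control (SD, n = 3) against 145 ± 1.04 CPM (SD, n = 2). The iron chaperones PCBP1 and PCBP2, which hand iron to ferritin, rose by 0.41 and 0.26 on the log2 scale. PCBP1 passed in 1 of the 5 fits that left out a library, that without control replicate 1, and had adjusted p of 0.0746 to 0.159 in the others and of 0.0559 with the replicate block. FTMT, mitochondrial ferritin, had 0 counts in every library.

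The genes of export and of the hepcidin axis were mostly near the floor, with 5 of 8 outside the members not tested. HAMP, which encodes the hormone hepcidin, had 2 to 4 counts per library, and its coreceptor HJV had 0 or 1. TMPRSS6, a membrane serine protease that cleaves hemojuvelin and so restrains hepcidin in liver, fell in these cells. Its counts were 857, 1016 and 1126 in control against 349 and 259 after co-culture, without overlap, and the log2 fold change was -1.55 (adjusted p = 7.12e-05 by edgeR). FURIN, a proprotein convertase whose substrates include hemojuvelin and hepcidin, rose by 1.09 on the log2 scale, with 49.0 ± 3.00 CPM in control (SD, n = 3) against 104 ± 4.92 CPM (SD, n = 2). Both kept their call in all 12 alternatives, with log2 fold changes of -1.65 to -1.44 for TMPRSS6 and 1.01 to 1.15 for FURIN. Of 2 tested genes of siderophore binding besides the members, 1 was higher. It was SLC22A17, a receptor for lipocalin 2, which rose by 1.32 on the log2 scale (adjusted p = 0.0217) from 12, 29 and 36 counts to 60 and 54, and with either co-cultured library left out its adjusted p was 0.110 or 0.127.

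In mitochondria, 8 of 21 tested genes of iron transport and iron-sulfur cluster assembly rose and 3 fell by edgeR, while 8 rose and 2 fell by DESeq2. Those with the smallest p were FDX1, which supplies electrons to steroid and cluster synthesis, HSPA9, the mitochondrial HSP70 chaperone, and BOLA3, a cluster assembly factor. Their log2 fold changes were 0.69, 0.73 and 0.75, with adjusted p of 0.000696, 0.000711 and 0.000977. Those that fell included the cysteine desulfurase NFS1 and the reductase FDXR, by 0.35 and 0.56 on the log2 scale. The mitochondrial iron importers SLC25A37 and SLC25A28 had log2 fold changes of -0.38 and -0.25 that did not pass (adjusted p = 0.0764 and 0.135).

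Heme synthesis had 4 genes that rose and 1 that fell among 8 tested by edgeR, and 3 and 1 by DESeq2. ALAS1, its first and rate-limiting enzyme outside erythroid cells, rose by 0.62 on the log2 scale (adjusted p = 0.00148), and UROS rose by 0.62 (adjusted p = 0.00506), with an adjusted p of 0.0713 when co-cultured replicate 2 was left out. PPOX, the penultimate enzyme, fell by 0.91 on the log2 scale, with 17.6 ± 1.78 CPM in control (SD, n = 3) against 9.41 ± 1.64 CPM (SD, n = 2), and had 17.7% of its reads on the opposite strand. ALAS2, the erythroid isoform, had 0 counts in every library, and 109 reads in all on its opposite strand. Among 9 tested genes of heme uptake, export and breakdown, 2 rose and 2 fell by edgeR, while 1 rose and 2 fell by DESeq2. HPX encodes hemopexin, the heme-binding plasma protein, and its counts were 233, 182 and 217 in control against 29 and 38 after co-culture. It fell by 2.47 on the log2 scale (adjusted p = 0.000115 by edgeR), the largest change among the iron genes tested. The heme exporter FLVCR1 fell by 0.59, and SLC48A1 and SLC46A1, also listed for heme transport, rose by 0.85 and 0.34. At SLC46A1, 78.9% of reads fell on the opposite strand. For HMOX1, heme oxygenase 1, the log2 fold change was 0.22 (adjusted p = 0.631 by edgeR). HMOX2 was listed with 0 to 2 counts, as was its overlapping neighbour NMRAL1 with 0 or 1, and no level is drawn from it.

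Of 4 tested messages outside the members that are known to carry an IRE, 3 rose and 0 fell by edgeR, with 0 lower at an unadjusted p under 0.05 and 0 lower by DESeq2. EPAS1, which encodes HIF-2α and carries its IRE in the 5′ UTR, rose from 321, 305 and 351 counts to 933 and 690, by 1.48 on the log2 scale (adjusted p = 2.95e-05 by edgeR). CDC14A and CDC42BPA rose by 1.05 and 0.26, and the adjusted p of CDC14A was 0.0938 or 0.0746 with either co-cultured library left out.

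**Figure D4:**
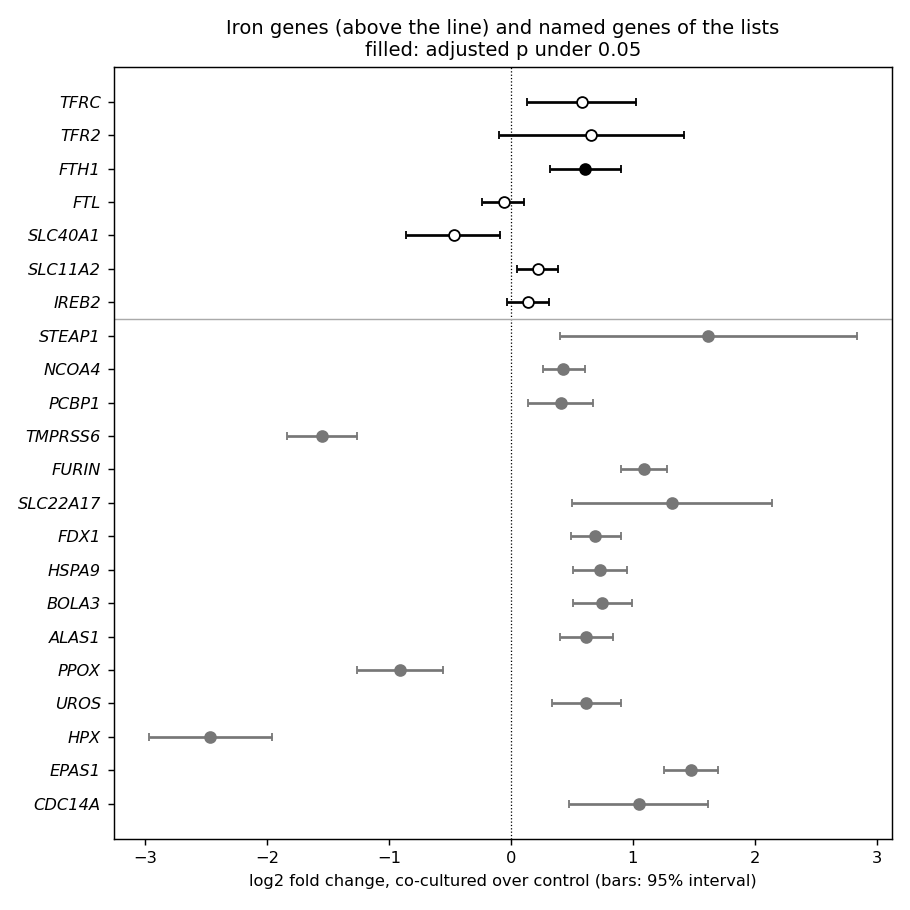
Log2 fold changes of co-cultured over control cells by edgeR (horizontal axis, bars are 95% intervals) for the 7 tested iron genes (black, above the line) and the named genes of the wider iron lists (grey), filled where the adjusted p was under 0.05. The changes of TMPRSS6 and HPX to the left and of EPAS1 to the right exceed those of every gene above the line.

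**Figure D5:**
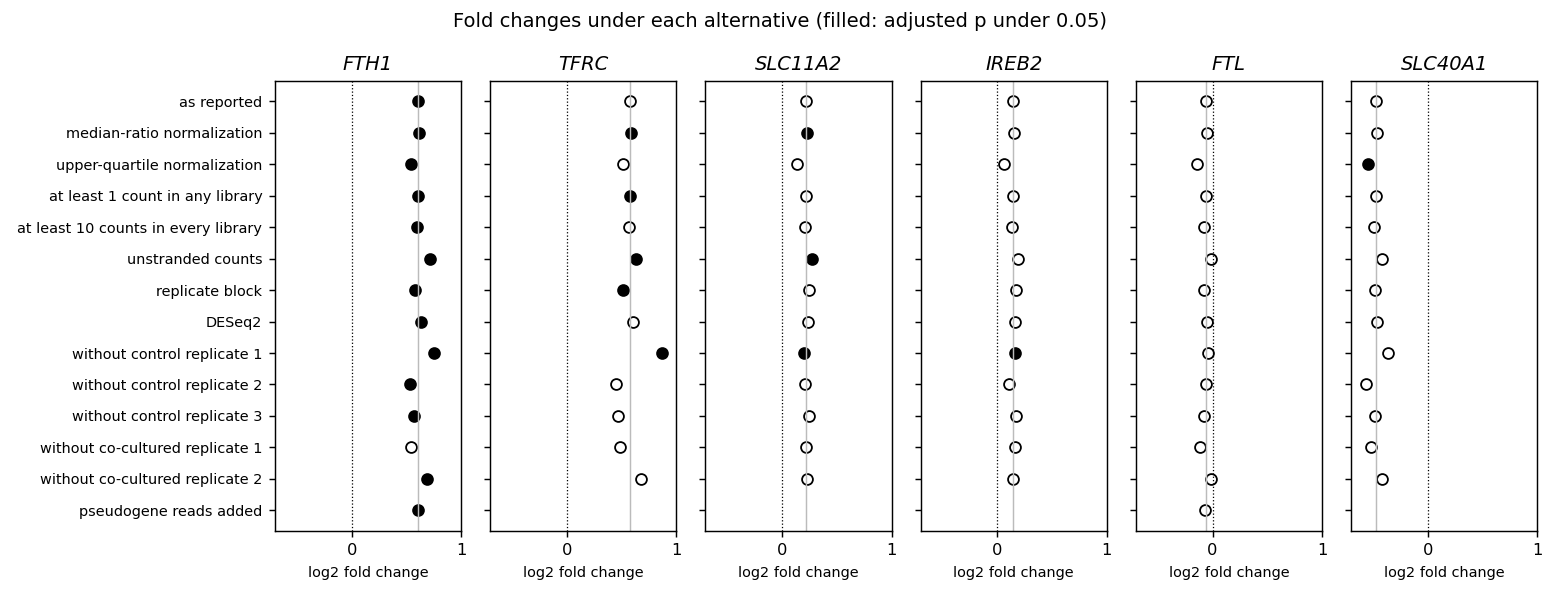
Log2 fold changes of 6 iron genes (horizontal axes) as reported and under each alternative of processing or left-out library (rows), filled where the adjusted p was under 0.05. FTH1 was filled in all but 1 row, FTL in none, and TFRC was filled in some rows only, with its highest value of 0.87 without control replicate 1.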

How the data were processed

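The authors deposited raw counts of reads per gene for each library, without normalization, in the layout of STAR (STAR 2.6.1b, CASAVA 1.8 and DESeq2 on GRCh38 are named in the submitters' processing notes). Only counts on the sense strand of these directional libraries entered the tests. They also deposited group means as normalized signal, which equal these counts after median-ratio scaling within 1%, and columns of their own comparison (fold changes, p-values), which were not used. Genes kept by filterByExpr were normalized by TMM and compared with edgeR 4.0.16 (quasi-likelihood test, R 4.3.3, Benjamini-Hochberg over 20360 genes, called at an adjusted p under 0.05). The common dispersion was 0.0103. Standard errors are the log2 fold change over the square root of F. CPM use TMM library sizes, except for the floor, and TPM use the union of exons of GENCODE release 29. Fits were tested on simulated data. IRE sites come from the GENCODE transcripts.

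Alternatives were DESeq2 1.42.0, other normalizations, filters of at least 1 count in any or 10 in every library, unstranded counts, a replicate block, added pseudogene reads and each library left out. Members and lists were chosen with earlier results of these data known. Named were all members, in each list genes with an adjusted p under 0.05 and an absolute log2 fold change above 1 or else the 3 with the smallest p, the 3 pseudogenes with most counts, genes overlapping a member and the nearest patterns to FTH1. Other genes in the text were named after their values were seen. The results of some listed genes are not reported here. Intervals and floors cover the spread of these libraries and counting error only. Plots used matplotlib 3.10.9, and permutation tests scipy 1.17.1.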

Additional observations from a re-analysis of the deposited data

Results flagged for a closer look

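Reads on the strand opposite to FTH1 lie outside the main measurement. They numbered 66, 42 and 48 in control against 114 and 154 after co-culture, so both co-cultured libraries lay above the control level. BEST1, whose exons overlap FTH1 on that strand, rose as described above. The share of its reads among these was not tested.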

How the results depend on the processing

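The direction of every member tested was the same under all alternatives run. With each library left out in turn, log2 fold changes ran from 0.53 to 0.75 for FTH1, 0.45 to 0.87 for TFRC, 0.20 to 0.25 for SLC11A2 and 0.11 to 0.17 for IREB2. FTH1 passed in 4 of these 5 fits, TFRC, SLC11A2 and IREB2 in 1, that without control replicate 1 (IREB2 adjusted p = 0.0345). FTL and TFR2 passed in none, and SLC40A1 passed only under upper-quartile normalization (-0.55). TFRC passed with median-ratio normalization (0.59), at least 1 count in any library (0.58), unstranded counts (0.63) and the replicate block (0.51), and SLC11A2 with median-ratio normalization (0.23) and unstranded counts (0.27). The number of members higher was therefore 3, 2, 3 and 2 under these 4 settings in the order given for TFRC, and 0 to 4 with a library left out, and 1 was lower under upper-quartile normalization. The cause of these shifts was not tested.

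Of the other iron genes, 13 to 33 were higher and 4 to 9 lower with a library left out, 11 were lower under upper-quartile normalization and 4 under the replicate block. Over all genes, 1749 to 5295 were higher and 985 to 4602 lower with a library left out, and 1280 met the study's criterion with at least 10 counts in every library. Upper-quartile normalization moved the median of all genes to -0.11 and gave 3076 higher and 3929 lower. Deviations from the group means in same-numbered libraries had correlations of -0.109 and -0.0653, and the replicate numbers were not taken as pairs. With 2 co-cultured libraries these deviations mirror each other, so the check cannot exclude pairing. Counts were low for TFR2 (15 to 34 per library) and STEAP1 (2 to 12), and the effect of depth on the calls was not tested.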
